A study of Mus musculus with 4 samples.

Results

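The genes described are 35 transcripts of the endoplasmic reticulum (ER) stress and amino acid responses, out of 17305 genes with a symbol on a mouse array. They were chosen by their known place in these pathways, through the accession that each array probe carries. Of the 35 genes, 34 were matched, by 56 probes, and no probe matched the protein disulphide isomerase gene Pdia3. The source was intact ureteric buds of mouse kidney, the epithelial outgrowths that branch into the collecting system. Buds of both groups were kept in matrix gel, in DMEM/F12 medium that contained 10% fetal bovine serum and the growth factors GDNF and HGF, each at 100 ng/ml. The AngII group received angiotensin II, a peptide hormone that raises blood pressure, at 1e-05 M for 6 h, and the media group was kept in medium alone for 6 h. The sources used here give no strain, no age and no number of pooled buds. Each group has 2 numbered RNAs, and each numbered pair was read on 2 two-colour arrays with the dyes exchanged, all 4 arrays on 1 slide.

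Cells sense misfolded protein in the ER through the unfolded protein response. ATF6 and the spliced form of XBP1 switch on chaperones, folding enzymes and the machinery that returns faulty proteins to the cytosol for destruction. The kinases PERK, GCN2, HRI and PKR phosphorylate the translation factor eIF2alpha, which lowers protein synthesis in general but favours translation of the transcription factor ATF4. ATF4 and its partners switch on genes for amino acid synthesis, amino acid import and cell stress, and because amino acid starvation acts through the same kinase step, this arm is also called the integrated stress response. The members were therefore divided into 18 genes of the ATF4 and amino acid arm, 12 ER chaperones and folding enzymes, 4 genes of ER-associated degradation, and Xbp1.

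The short sequences that known regulators read in these promoters are shown first, since the results are ordered by the arm a gene belongs to. RefSeq (GRCm38.p6) gave promoters from 250 bases before to 50 bases after the start for 32 of the 35 genes, with none for Slc7a5, Hyou1 and Manf. The ER stress element (ERSE), through which ATF6 acts, is CCAAT followed after a gap of 9 bases by CCACG. An exact match on either strand was found in 6 of 10 chaperone promoters and in the degradation gene Syvn1. None of the 18 promoters of the ATF4 arm, which belong to 17 genes, held one, and 0.119% of the 32851 promoters in the table did. The elements here and below were chosen because known regulators read them in promoters of these pathways. Their shares among members and among all promoters are therefore descriptive, and enrichment was not tested. The matches and 8 bases to each side are printed below in the direction of the element, 5′ to 3′, with the element in capitals.
Calr, chr8:84847067-84847101, plus strand: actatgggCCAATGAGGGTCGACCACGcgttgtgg
Canx, chr11:50325792-50325826, minus strand: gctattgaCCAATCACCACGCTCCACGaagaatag
Dnajc3, chr14:118937819-118937853, plus strand: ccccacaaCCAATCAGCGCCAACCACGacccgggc
Hsp90b1 (downstream match), chr10:86705525-86705559, plus strand: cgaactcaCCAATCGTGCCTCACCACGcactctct
Hsp90b1 (upstream match), chr10:86705630-86705664, minus strand: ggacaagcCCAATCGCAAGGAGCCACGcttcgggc
Hspa5, chr2:34772017-34772051, plus strand: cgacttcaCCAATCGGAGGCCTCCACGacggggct
Pdia6, chr12:17266483-17266517, plus strand: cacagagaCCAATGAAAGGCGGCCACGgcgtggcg
Syvn1, chr19:6046524-6046558, plus strand: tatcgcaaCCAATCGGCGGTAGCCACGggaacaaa

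Hsp90b1, which encodes the ER form of HSP90, held 2 matches on opposite strands, and Hspa5, which encodes the master chaperone BiP, held 1 at 65 bases before its start. Their whole promoters are shown so that the elements can be seen in place, on the gene's own strand and with the element, or its reverse complement, in capitals. The Hspa5 window is chr2:34771840-34772139, plus strand, and the Hsp90b1 window is chr10:86705395-86705694, minus strand.
Hspa5: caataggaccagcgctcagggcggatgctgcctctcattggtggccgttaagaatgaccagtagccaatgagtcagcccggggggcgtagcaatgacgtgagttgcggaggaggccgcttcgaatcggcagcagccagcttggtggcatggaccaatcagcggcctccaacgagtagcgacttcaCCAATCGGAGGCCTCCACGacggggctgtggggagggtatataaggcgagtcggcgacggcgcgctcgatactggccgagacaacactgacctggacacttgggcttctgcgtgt
Hsp90b1: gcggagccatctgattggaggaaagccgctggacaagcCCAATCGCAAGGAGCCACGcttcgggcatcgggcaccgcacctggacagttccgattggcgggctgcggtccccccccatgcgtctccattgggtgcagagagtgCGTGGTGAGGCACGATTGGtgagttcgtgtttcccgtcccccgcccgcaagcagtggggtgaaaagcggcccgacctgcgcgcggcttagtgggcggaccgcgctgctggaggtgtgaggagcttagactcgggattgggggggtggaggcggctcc

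A second form of the element, ERSE-II, is ATTGG followed after 1 base by CCACG. It was found in 0.0365% of all promoters and in 1 member, Herpud1, which encodes a membrane protein of ER-associated degradation. The match is printed in the same way.
Herpud1, chr8:94386369-94386395, plus strand: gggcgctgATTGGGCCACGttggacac

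The C/EBP-ATF response element (CARE), which ATF4 binds together with C/EBP partners, was searched on both strands as TGATGNAA, where N is any base. It was found in 3.97% of all promoters, in 5 of 17 genes of the ATF4 arm (Asns, Chac1, Nupr1, Slc7a11 and Trib3), in none of the 10 chaperone promoters and in Herpud1. The unfolded protein response element TGACGTGG was in 0.676% of all promoters and in none of those of the members. No ERSE, ERSE-II and CARE match overlapped another in these windows. A match of letters does not show that a factor was bound, and a window without one says nothing about the factor.
Asns, chr6:7693217-7693240, minus strand: cagccacaTGATGAAActtcccgc
Chac1, chr2:119351041-119351064, minus strand: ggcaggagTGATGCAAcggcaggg
Herpud1, chr8:94386309-94386332, minus strand: gtgcgggcTGATGCAAcccgccgt
Nupr1, chr7:126625565-126625588, plus strand: gccctgtcTGATGCAAtctggccc
Slc7a11 (downstream match), chr3:50443645-50443668, plus strand: ctgcatgaTGATGCAAattctcca
Slc7a11 (upstream match), chr3:50443664-50443687, minus strand: catgtggcTGATGCAAacctggag
Trib3, chr2:152344031-152344054, plus strand: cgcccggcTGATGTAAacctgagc

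The promoters of Chac1, whose enzyme degrades glutathione, and Trib3, whose pseudokinase restrains ATF4 and AKT, are printed whole, since these were among the members with the highest ratios. Chac1 lies at chr2:119350992-119351291, plus strand, with the element 193 bases before its start, and Trib3 at chr2:152344011-152344310, minus strand, with the element 15 bases after it. Capitals mark the reverse complement of the element.
Chac1: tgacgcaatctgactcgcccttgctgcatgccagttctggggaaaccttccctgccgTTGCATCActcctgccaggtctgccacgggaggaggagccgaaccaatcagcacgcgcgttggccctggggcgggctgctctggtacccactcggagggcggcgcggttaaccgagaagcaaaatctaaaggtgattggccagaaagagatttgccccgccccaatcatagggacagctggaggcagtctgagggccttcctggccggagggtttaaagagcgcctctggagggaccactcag
Trib3: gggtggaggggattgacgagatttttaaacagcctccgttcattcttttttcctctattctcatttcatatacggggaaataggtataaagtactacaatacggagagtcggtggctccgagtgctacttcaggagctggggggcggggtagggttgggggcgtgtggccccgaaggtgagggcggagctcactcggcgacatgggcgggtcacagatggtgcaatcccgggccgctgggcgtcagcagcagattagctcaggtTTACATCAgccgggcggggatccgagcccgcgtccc

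**Figure D1:**
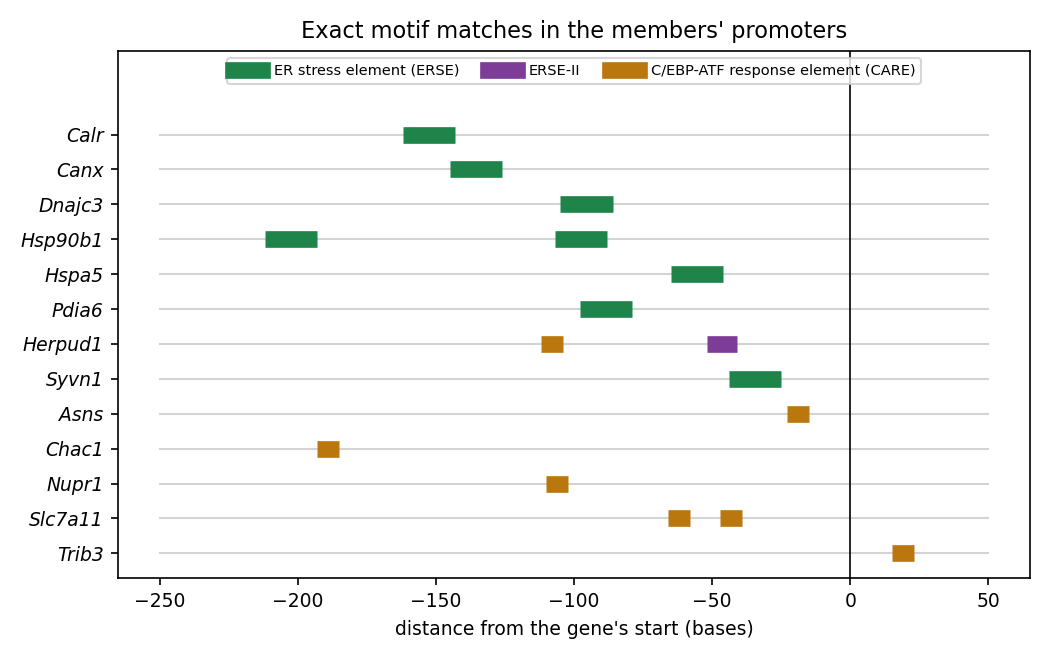
Exact matches of the ER stress element (green), its second form (purple) and the C/EBP-ATF response element (orange) in the promoters of the 13 members that hold any, drawn to scale against the distance in bases from the gene's start (vertical line). The green bars lie in 6 chaperone promoters and Syvn1, and the orange bars in 5 genes of the ATF4 arm and Herpud1.

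Measurements are log2 ratios of AngII over media within an array, after background correction and dye normalisation. Of 41174 probes, 19390 were well above background in all 4 arrays of at least 1 of the groups and were tested, 52 of them for members. All 34 genes had at least 1 tested probe, and 12 had several. A gene is represented by its brightest tested probe, and its other probes are described afterwards. Ratios on the 4 arrays are given in a fixed order, namely AngII in Cy5 for replicates 1 and 2, then AngII in Cy3 for replicates 1 and 2. Ratios of the replicates correlated across 19370 probes at r = 0.98. Their half-difference had an SD of 0.038, against 0.038 for array noise alone, a ratio of 1.01. The replicates thus differed by no more than the noise. They are read here as 1 independent pair of RNAs, although the test takes their 2 ratios as separate values. The limma p-values therefore measure the spread between hybridisations of these RNAs only, and the difference between AngII and media has no check in an independent pair. Arrays of the same dye orientation correlated at 0.96 and 0.97, and those of opposite orientation at 0.66 and 0.67, so that many probes gave a different ratio in each orientation. That difference cancels in the mean of a dye-swapped pair and is not part of the main test.

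Most genes passed the test, so the counts of members are read against all named genes. At a Benjamini-Hochberg adjusted p under 0.05 in limma, 41.5% of 11449 named genes were higher under AngII and 37.5% were lower. With the replicate number as a block on the 4 single arrays, where the dye difference counts as error, these shares were 17.8% and 15.1%. The share with the same sign on all 4 arrays was 33.1% for higher genes and 28.1% for lower ones. At least a 1.5-fold difference together with the same sign on all 4 arrays was reached by 6.31% upward and 5.94% downward. Over all tested probes, 37.6% were called higher and 38.6% lower. The median log2 ratio of all named genes was 0.01.

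Of the 34 members, 20 were called higher under AngII, 8 lower and 6 neither, with a median log2 ratio of 0.27. Among the ER chaperones and folding enzymes, 10 of 11 were called higher and none lower, with a median of 0.49 and a range of -0.02 to 0.79. In the ATF4 and amino acid arm, 6 of 18 were called higher and 8 lower. By these calls alone the arm is not set apart from all named genes, of which 41.5% were higher and 37.5% lower. The arm had a range of -1.08 to 1.25 and a median of -0.05, which was 0.0016 with median centring in place of loess. The chaperone ratios thus lay mostly on 1 side of 0 and were modest, whereas the ATF4 arm held both the largest increases and the largest decreases of the members, and many genes near 0. Under the replicate block the counts were 12 higher and 3 lower for all members, 5 higher and none lower for the chaperones, and 4 higher and 3 lower for the ATF4 arm. With the 1.5-fold rule they were 8 higher and 2 lower for all members, 3 higher and none lower for the chaperones, and 4 higher and 2 lower for the ATF4 arm. Of the chaperones, 8 of 11 had a positive ratio on all 4 arrays. That count leaves out Hspa5, which lacked a value on 1 array and was positive on the others. On the single arrays the chaperone median was 0.45, 0.44, 0.53 and 0.56, and that of the ATF4 arm -0.09, -0.03, -0.01 and 0.04, so the arms kept their order in both dye orientations. In the authors' deposited table the same probes of the 34 members were called higher for 20, lower for 8 and neither for 6. The calls differed for 2 genes, since that table calls Asns higher and leaves Syvn1 uncalled, the reverse of the calls here. The log2 ratios of the authors' deposited table correlated with those computed here at r = 0.995 over the tested probes.

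**Figure D2:**
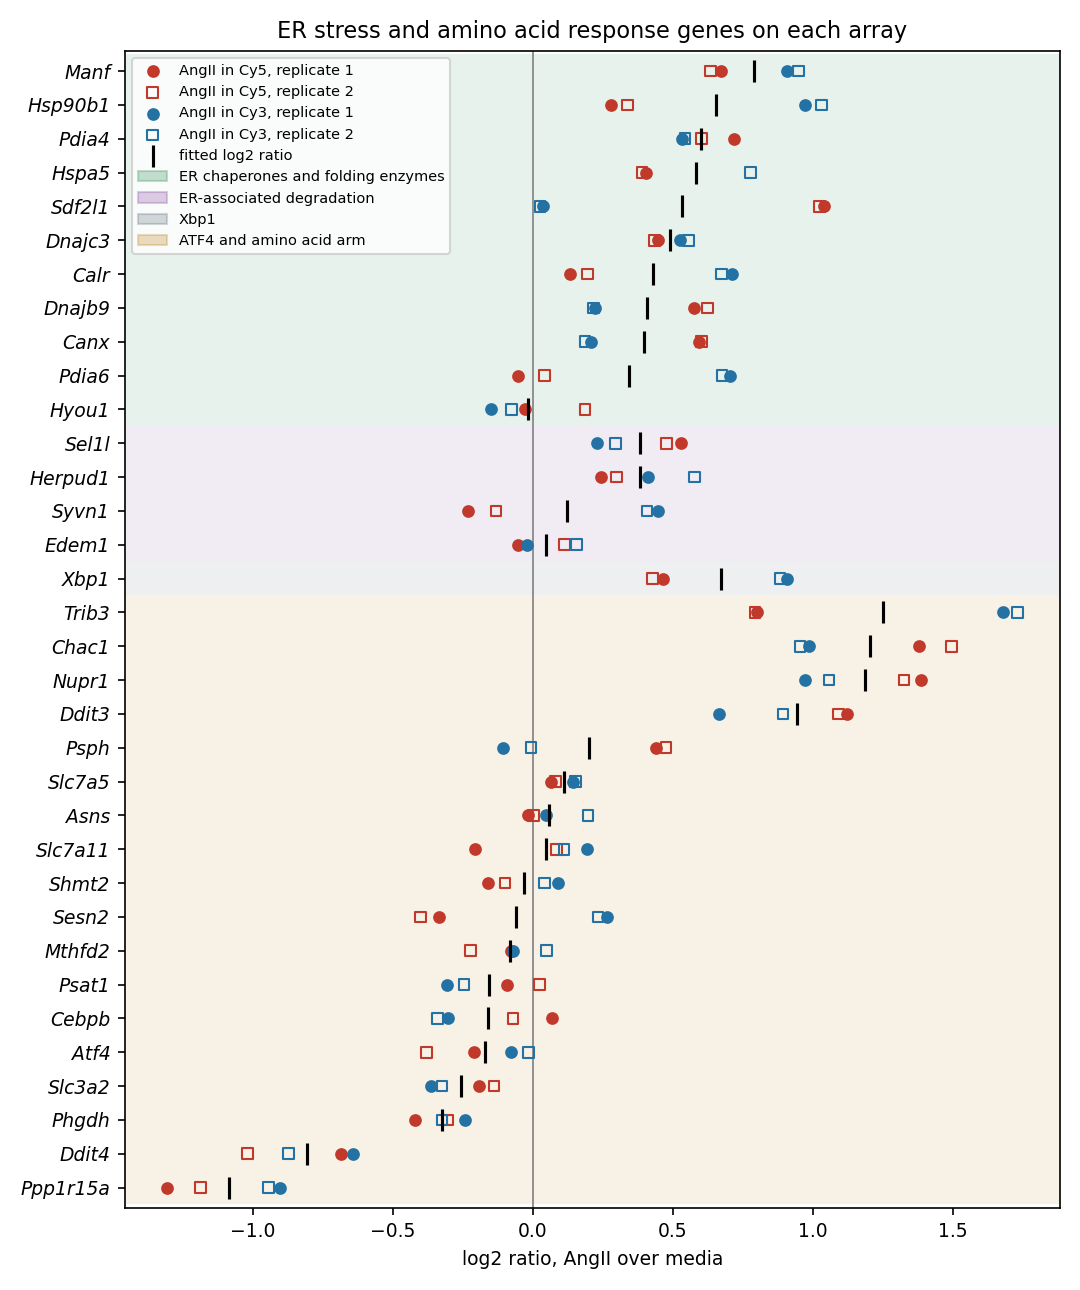
Log2 ratio of AngII over media for the brightest tested probe of each of 34 genes (rows), on each of 4 arrays (red, AngII in Cy5; blue, AngII in Cy3; circles, replicate 1; squares, replicate 2), with the fitted value as a black bar. Shading marks the groups of genes. The fitted values of the chaperones lie between -0.02 and 0.79, and those of the ATF4 arm between -1.08 and 1.25.

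A small secreted protein that resides in the ER and is released under stress is encoded by Manf. This gene had the highest ratio of the ER chaperones and folding enzymes. Its log2 ratios were 0.67, 0.63, 0.91 and 0.95, all above 0, for a fitted 0.79 (SE 0.04, adjusted p = 3.04e-20; replicate block 0.00674). The normalised log2 intensities behind them were 10.88, 11.29, 10.92 and 10.76 in the AngII channels, against 10.21, 10.66, 10.02 and 9.81 in the media channels. The AngII value was the higher on each array, and the groups did not overlap. Here and below, such a lack of overlap is between repeat readings of what is read as 1 pair of RNAs. Its share among all tested genes is not given here.

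Hsp90b1 had ratios of 0.28, 0.34, 0.97 and 1.03 and a fitted 0.65 (SE 0.04, adjusted p = 6.94e-18; replicate block 0.0468). The ratio was positive on every array but much larger with AngII in Cy3. For Hspa5 the ratios were 0.40, 0.39 and 0.78 on 3 arrays, because the spot of the fourth (AngII in Cy3, replicate 1) carried an outlier flag and was left out. Its fitted ratio of 0.58 thus rests on replicate 2 alone, and the error behind its call as higher was taken from the other probes. The replicate block, fitted on the 3 arrays, gave 0.49 (limma adjusted p = 0.0541). With the flagged spot kept, that array gave 0.79, close to the 0.78 of the other array of its orientation. Both chaperones were thus higher under AngII on every array measured, although their intensities, which also vary between arrays, overlapped between the groups.

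Dnajc3, a co-chaperone of BiP that also inhibits the kinase PERK, had 0.45, 0.43, 0.52 and 0.56, with a fitted 0.49 (adjusted p = 1.32e-14; replicate block 0.00927), and its arrays lay close together. Dnajb9, a co-chaperone that represses the sensor IRE1, had 0.57, 0.62, 0.22 and 0.22, with a fitted 0.41 (adjusted p = 1.52e-12; replicate block 0.0465). Sdf2l1, which works with BiP and its co-chaperones, had 1.04, 1.02, 0.04 and 0.03. Here the fitted 0.53 (adjusted p = 1.6e-15) averages a difference seen in 1 dye orientation with values near 0 in the other, and under the replicate block the adjusted p was 0.161. Hyou1, the large HSP70-type chaperone that exchanges the nucleotide of BiP, had -0.03, 0.19, -0.15 and -0.08. These values lay on both sides of 0 and the fitted -0.02 did not pass (adjusted p = 0.689). Its probe was dim, at a mean log2 intensity of 7.17.

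The lectin chaperones hold newly made glycoproteins in the folding cycle. Calr (calreticulin) had 0.13, 0.20, 0.71 and 0.67, with a fitted 0.43 (adjusted p = 4.52e-13; replicate block 0.076). Canx (calnexin) had 0.59, 0.60, 0.21 and 0.19, with a fitted 0.40 (adjusted p = 3.02e-12; replicate block 0.0547). Both were positive on all 4 arrays, with opposite dye orientations giving the larger value. Among the disulphide isomerases, which form and rearrange disulphide bonds, Pdia4 had 0.72, 0.60, 0.53 and 0.54, with a fitted 0.60 (adjusted p = 7.93e-17; replicate block 0.00695). Pdia6 had -0.05, 0.04, 0.70 and 0.67 at its brightest probe, with a fitted 0.34 (adjusted p = 1.18e-10; replicate block 0.199). The Pdia6 ratio was near 0 with AngII in Cy5, so this probe alone does not show a rise in both orientations.

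In ER-associated degradation, Herpud1 had 0.24, 0.30, 0.41 and 0.58 and Sel1l, the adaptor of the ubiquitin ligase complex, had 0.53, 0.48, 0.23 and 0.30. Both had a fitted ratio of 0.38, positive on all 4 arrays (adjusted p = 1.9e-11 and 7.71e-12; replicate block 0.0272 and 0.0297). Syvn1, the ligase itself, had -0.23, -0.13, 0.45 and 0.41, so its sign followed the dye orientation (fitted 0.12, adjusted p = 0.00216; replicate block 0.587). Edem1, which directs glycoproteins to degradation, had -0.05, 0.11, -0.02 and 0.15, and its fitted 0.05 did not pass (adjusted p = 0.251). Xbp1, whose mRNA is spliced by IRE1 to yield the active factor, had 0.46, 0.43, 0.91 and 0.88, a fitted 1.59-fold increase (adjusted p = 3.08e-18; replicate block 0.0189). Which splice form its probe reads was not tested.

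The ERSE-bearing promoters printed above belong to 6 measured chaperones, Calr, Canx, Dnajc3, Hsp90b1, Hspa5 and Pdia6, with fitted ratios from 0.34 to 0.65, and to Syvn1. The 3 measured chaperones whose promoters held no exact match, Dnajb9, Pdia4 and Sdf2l1, had 0.41, 0.60 and 0.53, within that range. The fitted ratios of these chaperones therefore did not separate by the presence of an exact match in this window. Only 3 genes lacked a match, and the values of Sdf2l1 and Pdia6 come from a single dye orientation. A role of the element was not tested.

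Within the ATF4 arm, the stress regulators and effectors held the widest spread. Trib3 had 0.80, 0.79, 1.68 and 1.73, a fitted 2.38-fold increase (log2 ratio 1.25, SE 0.04, adjusted p = 7.96e-26; replicate block 0.0178). Its log2 intensities were 10.45, 10.46, 11.23 and 11.17 in the AngII channels and 9.65, 9.67, 9.55 and 9.44 in the media channels, so the groups did not overlap. Nupr1, a small chromatin-associated stress protein, had 1.38, 1.32, 0.97 and 1.06, a 2.27-fold increase (adjusted p = 3.58e-25; replicate block 0.00461). Its AngII intensities of 11.30, 11.40, 10.93 and 10.90 all lay above the media values of 9.92, 10.07, 9.95 and 9.84.

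Ddit3, which encodes CHOP, the transcription factor linked to death under prolonged ER stress, had 1.12, 1.09, 0.66 and 0.89. This was a 1.92-fold increase (adjusted p = 4.97e-22; replicate block 0.00645), with intensities of 9.78, 9.79, 9.34 and 9.36 under AngII and 8.65, 8.70, 8.67 and 8.46 in media. Chac1, a target of the ATF4 to CHOP axis, had 1.38, 1.49, 0.99 and 0.95, a 2.30-fold increase (adjusted p = 2.68e-25; replicate block 0.00614). Its intensities were 11.35, 11.52, 11.20 and 11.12 under AngII, above the 9.97, 10.02, 10.21 and 10.16 of media. By the brightest probe, Trib3, Chac1, Nupr1 and Ddit3 had the largest increases among the 34 members. With the mean of its tested probes Trib3 had 0.65, below the 0.79 of Manf and the 0.67 of Xbp1.

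Ppp1r15a, which encodes GADD34, the phosphatase subunit that reverses eIF2alpha phosphorylation, went the other way. Its ratios were -1.31, -1.19, -0.90 and -0.94, a fitted decrease by 1.08 on the log2 scale (adjusted p = 4.56e-24; replicate block 0.00505). Intensities were 7.74, 7.69, 7.80 and 7.81 under AngII, all below the 9.05, 8.88, 8.70 and 8.76 of media. Ddit4, which encodes REDD1, an inhibitor of mTORC1, had -0.69, -1.02, -0.64 and -0.87 and fell by 0.81 on the log2 scale (adjusted p = 4.33e-18; replicate block 0.00432). Ppp1r15a and Ddit4 were the 2 members called lower by the 1.5-fold rule. The Ddit4 probe was bright and not saturated on any array, and its log2 intensities of 15.01 to 15.89 under AngII and 15.65 to 16.78 in media overlapped across arrays.

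Atf4 itself had -0.21, -0.38, -0.08 and -0.02, a fitted -0.17 (adjusted p = 5.43e-05; replicate block 0.2), so its mRNA was slightly lower. Atf4 is among the 8 genes of its arm called lower, beside 6 called higher, counts that do not set the arm apart from all named genes. ATF4 is regulated largely by translation, which the arrays do not measure. Cebpb, a dimerisation partner of ATF4, had 0.07, -0.07, -0.30 and -0.34, with a fitted -0.16 (adjusted p = 0.000141; replicate block 0.262), and with median centring it had -0.09 and did not pass. Sesn2, a leucine sensor that restrains mTORC1, had -0.34, -0.40, 0.26 and 0.23, and its sign followed the dye orientation (fitted -0.06, adjusted p = 0.118).

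The 6 genes of serine, glycine, folate and asparagine synthesis lay near 0, with a median of -0.06 and a range of -0.32 to 0.20. Phgdh, the first enzyme of serine synthesis, fell with -0.42, -0.31, -0.24 and -0.33, a fitted -0.32 (adjusted p = 3.71e-10; replicate block 0.0257), and was negative on every array. The next enzymes of that pathway had ratios of -0.09, 0.02, -0.31 and -0.25 for Psat1 (fitted -0.16, adjusted p = 0.000216; replicate block 0.212) and of 0.44, 0.47, -0.11 and -0.01 for Psph (fitted 0.20, adjusted p = 5.84e-06; replicate block 0.31). Neither kept its sign on all 4 arrays, neither passed with processed signals, and with median centring Psat1 had -0.08 and did not pass. Asns, the asparagine synthetase and a classical target of amino acid starvation, had -0.02, 0.00, 0.05 and 0.20, and its fitted 0.06 (SE 0.04) did not pass (adjusted p = 0.15), although with median centring it had 0.14 and did. In the authors' deposited table Asns had 0.12 and was called higher (adjusted p = 0.0328). Its probe was bright, at 14.76, so the small ratio is not one of a dim probe. Shmt2, which makes glycine in mitochondria, had a fitted -0.03 (adjusted p = 0.408) over a range of -0.16 to 0.09. Mthfd2, a mitochondrial folate enzyme, had -0.08 (adjusted p = 0.0355; replicate block 0.452) and lay near background at 6.25, well above it on 2 of 4 arrays in the AngII channel and on all 4 in the media channel. Its value depended on the processing, with -0.64 from processed signals (adjusted p = 1.34e-09), and the call was lost with median centring (adjusted p = 0.112), no filter on dim probes (0.0991) and the dye term (0.0646).

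The amino acid carriers also moved little. Slc3a2, the shared heavy chain of these exchangers, had -0.19, -0.14, -0.36 and -0.32, with a fitted -0.26 (adjusted p = 6.85e-08; replicate block 0.0572). Slc7a5, the light chain that imports large neutral amino acids, had 0.06, 0.08, 0.14 and 0.15, with a fitted 0.11 (adjusted p = 0.00527; replicate block 0.24). Slc7a11, the cystine carrier, had -0.21, 0.08, 0.19 and 0.11 and did not pass (fitted 0.05, adjusted p = 0.248), with its probe near background at 6.35. By the brightest probe, no gene of the synthesis and carrier groups reached the 1.5-fold rule, although another Phgdh probe, described below, met it with a decrease. The CARE matches printed above were in Chac1, Nupr1 and Trib3, which by the brightest probe had the 3 highest ratios of the arm. They were also in Asns and Slc7a11, which did not pass. The rank of Trib3 rests on that probe. With its probes averaged Trib3 had 0.65, below the 0.94 of Ddit3, whose promoter held no CARE match. A link between the element and the ratios was not tested.

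**Figure D3:**
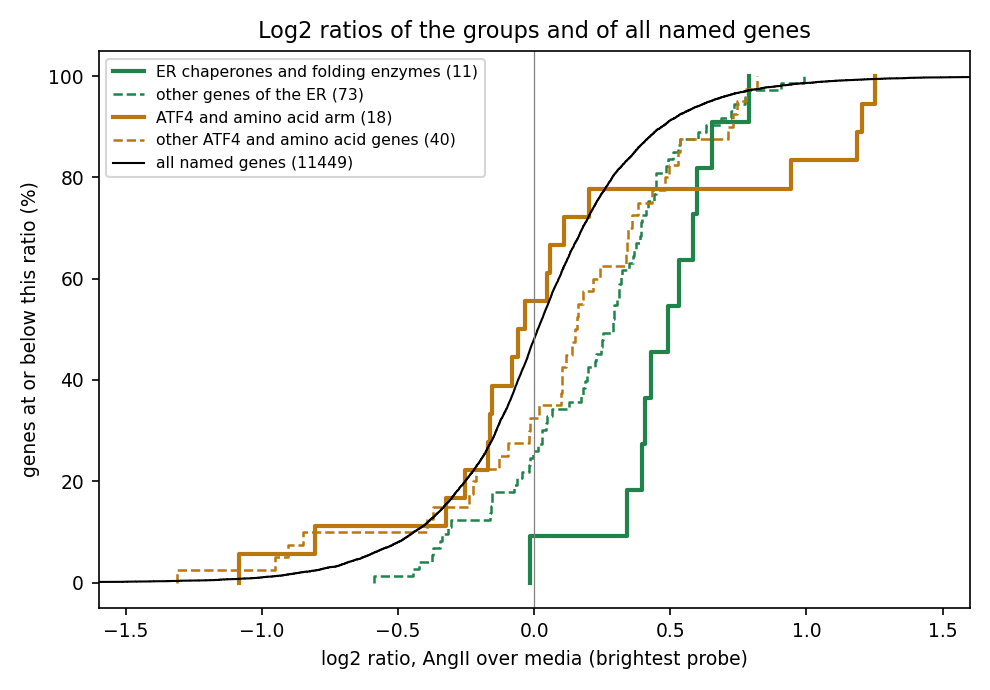
Cumulative share of genes (percent, vertical axis) at or below a given log2 ratio of AngII over media (horizontal axis), for the 11 chaperones and folding enzymes, the 18 genes of the ATF4 arm, 2 wider lists of the same pathways (dashed) and all 11449 named genes (black). The chaperone curve is shifted to a median of 0.49, while the ATF4 curve crosses that of all genes, with a median of -0.05.

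Other genes of the pathways, listed by function, were read in the same way. Of 73 tested genes of ER import, folding, glycosylation and degradation outside the members, 48 were called higher and 13 lower, with a median of 0.29. With the replicate block 25 were higher and 7 lower, and with the 1.5-fold rule 9 and 1. The highest were Derl3 at 0.99, a channel component of ER-associated degradation, Fkbp11 at 0.91, a prolyl isomerase of secretory cells, and Srp72 at 0.79, a protein of the signal recognition particle. The lowest were Tmbim6, an ER membrane inhibitor of cell death, at -0.59, the disulphide isomerase gene Pdia5 at -0.44 and the translocon subunit gene Sec61g at -0.42. Higher calls were thus also more frequent than lower ones in the wider ER list, beside shares of 41.5% and 37.5% among all named genes.

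Of 40 other genes of amino acid metabolism, transport, tRNA charging and ATF4 control, 26 were called higher and 11 lower, with a median of 0.15. Under the replicate block 11 were higher and 7 lower, and by the 1.5-fold rule 5 and 4. Stc2, which encodes the secreted glycoprotein stanniocalcin 2, had 0.82, the branched-chain aminotransferase gene Bcat1 0.78 and the alanine aminotransferase gene Gpt2 0.75. At the other end, the stress transcription factor gene Atf3 had -1.31, from -1.50 to -1.13 over the arrays, the neutral amino acid carrier gene Slc38a2 -0.95 and the methionyl-tRNA synthetase gene Mars1 -0.90. Higher calls were thus more frequent than lower ones in this list too, beside 41.5% and 37.5% of all named genes, and both directions held large ratios.

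Of 21 tested sensors and translation factors, 10 were called higher and 6 lower, with a median of 0.06, beside shares of 41.5% and 37.5% among all named genes. Creb3l2, an ER-anchored transcription factor, had 0.65, the kinase gene Eif2ak2 (PKR) 0.58 and the kinase gene Eif2ak4 (GCN2) 0.42. Creb3, another ER-anchored factor, had -0.67, Eif2b5, the catalytic subunit of the exchange factor that phosphorylated eIF2alpha inhibits, had -0.25, and the ATF6 paralogue gene Atf6b -0.24. Under the replicate block 5 were higher and 2 lower, beside 17.8% and 15.1% of all named genes. These counts do not set the sensors apart from other genes. The genes of the 3 sensors that open the response, named after their values were seen, differed in sign. Atf6 had 0.31, 0.32, 0.20 and 0.39 (fitted 0.31, adjusted p = 2.59e-09; replicate block 0.0266), positive on every array. Ern1 (IRE1) had -0.02, -0.01, -0.43 and -0.33 (fitted -0.20, adjusted p = 6.81e-06; replicate block 0.212), and Eif2ak3 (PERK) had -0.01, 0.04, -0.21 and -0.22 (fitted -0.10, adjusted p = 0.0102; replicate block 0.391).

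Several probes of a gene did not always give the same ratio. Of the 52 tested member probes 31 were called higher and 11 lower, beside 37.6% and 38.6% of all tested probes. Among them 19 of 21 chaperone probes were higher and none lower. Of the 23 probes of the ATF4 arm 7 were higher and 10 lower, which does not set them apart from all tested probes. The second Trib3 probe, which carries the same accession, had -0.06, 0.00, 0.18 and 0.11 (fitted 0.06, adjusted p = 0.138), against 1.25 at the brightest, so the Trib3 increase rests on 1 of its 2 probes. Both Hsp90b1 probes were high, the second with 0.56, 0.48, 0.49 and 0.42. The other Pdia6 probes had fitted ratios of 0.56, positive on all 4 arrays, and 0.08, with a sign that followed the dye.

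All 3 Phgdh probes fell, and one of them by more than the brightest, with -0.78, -0.77, -0.81 and -0.74 (fitted -0.77, adjusted p = 6.23e-20). Tested probes of Dnajc3 ran from 0.26 to 0.49, of Canx from 0.20 to 0.40, of Calr from 0.31 to 0.43 and of Dnajb9 from 0.06 to 0.41. One Edem1 probe fell by 0.38 (adjusted p = 1.67e-11) while its other probes had 0.05 each. Slc3a2 had -0.05 at its second probe, Psph 0.09 and Sel1l 0.16. Of the 52 probes, 11 differed between dye orientations by more than 0.5 on the log2 scale, and the share among all tested probes is not given here. The 4 untested probes read Slc7a11 (2 probes), Dnajc3 and Syvn1.

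**Figure D4:**
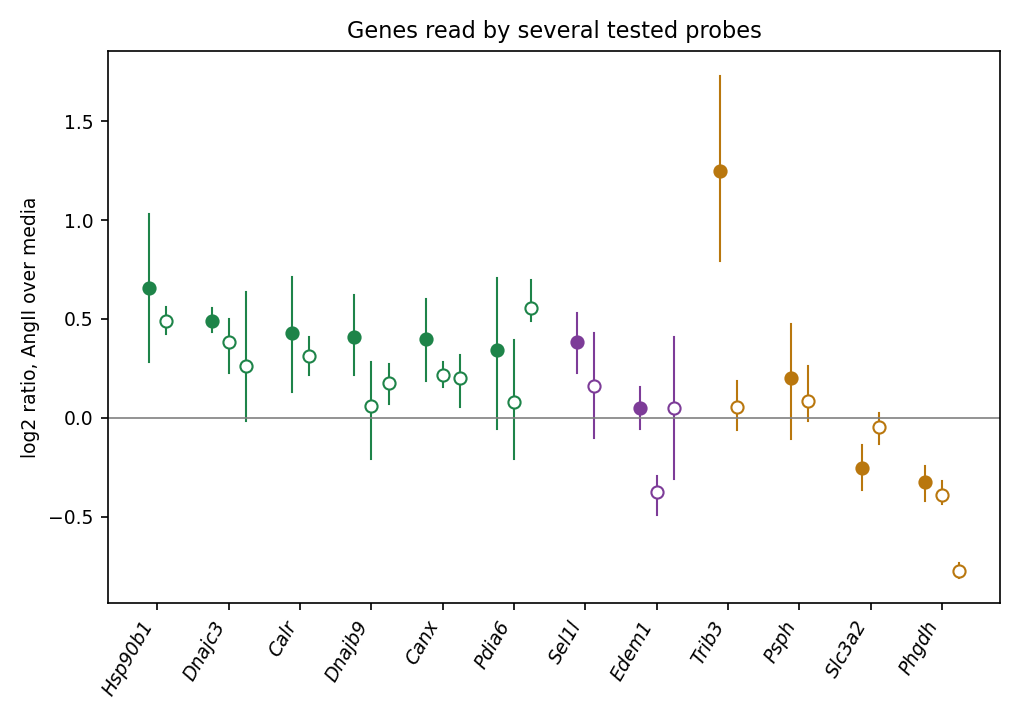
Log2 ratio of AngII over media for every tested probe of the 12 genes read by several, with the filled circle for the brightest probe, open circles for the others and bars for the lowest and highest of the 4 arrays. All fitted ratios of Hsp90b1, Dnajc3, Calr, Dnajb9, Canx and Pdia6 lie above 0, but some bars of Dnajc3, Dnajb9 and Pdia6 reach below it. The probes of Trib3, at 1.25 and 0.06, and of Edem1, at -0.38 to 0.05, are apart.

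Markers of cell types were read beside the same shares, 41.5% of all named genes called higher and 37.5% lower. In whole buds a change in the share of a cell type and a change of RNA per cell cannot be told apart. Of 9 tested erythroid genes 8 were called higher, with a median of 1.91, and their summed normalised intensity was 33158 to 40947 over the 4 AngII channels, against 6626 to 7863 over the media channels. Stromal genes were called higher in 6 of 12 and lower in 2 (sums of 46911 to 51572 in AngII channels against 36612 to 42430 in media channels). The stromal sum holds the bright probe of Acta2 (mean log2 intensity 12.58), which had the highest stromal ratio, 1.69. The stromal median was 0.09, so the sum does not stand for all these genes. Leukocyte genes were higher in 3 of 8 and lower in 4 (1025 to 1096 for AngII against 942 to 998 for media). Their probes were dim, at mean log2 intensities of 6.44 to 7.83, and their median ratio was -0.05. Endothelial genes were higher in 2 of 9 and lower in 6 (2594 to 2808 for AngII against 2570 to 2852 for media, which overlap). Ureteric epithelial markers went both ways, 8 higher and 9 lower of 19 tested (247036 to 275201 for AngII against 273119 to 343281 for media). This sum is mostly that of the 2 brightest probes and does not stand for all the markers. They are Krt18 and Krt8, at mean log2 intensities of 17.02 and 16.63, with fitted log2 ratios of -0.03 and -0.59. The epithelial genes Krt8, Epcam and Gata3 were well above background, while the tip receptor gene Ret was not on all arrays of either group. The erythroid genes had the highest median of the 5 marker lists, and the part of these values in the ratios of the ER and ATF4 genes was not tested.

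**Figure D5:**
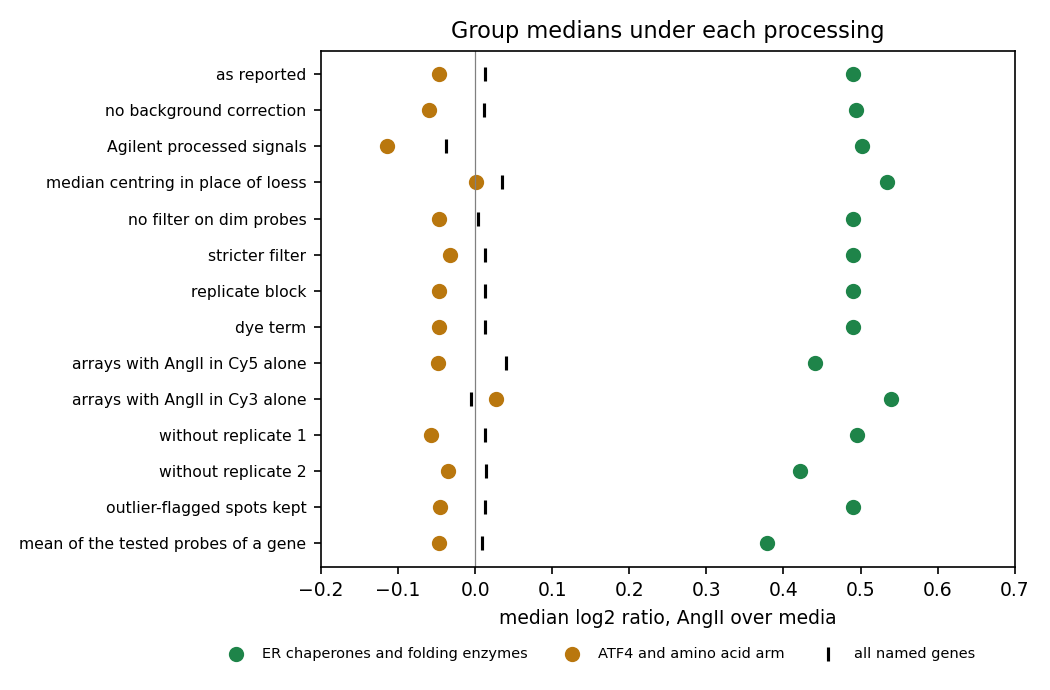
Median log2 ratio of AngII over media for the chaperones (green), the ATF4 arm (orange) and all named genes (black bars), as reported and under each of 13 other ways of processing the same arrays (rows). The chaperone median lies between 0.38 and 0.54 in every row, and that of the ATF4 arm between -0.11 and 0.03.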

How the data were processed

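RNA of mouse ureteric buds was labelled from 300 ng of total RNA and hybridised to 4 two-colour arrays. Feature Extraction 10.5.1.1 gave, per the file headers, median spot and local background intensity, and processed signals corrected for background and dye. The deposited files also give the log10 ratio of red over green, which was not used. The submitters' processing notes name limma, with no version. The authors' deposited table gives log2 ratios, adjusted p-values and a call, a score of -1, 0 or 1, made with a normalisation that the sources used here do not give. A mark of unstated meaning was left aside.

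Ratios were computed with limma 3.58.1 in R 4.3.3: normexp background correction with an offset of 50, loess (control spots weighted 0), removal of outlier-flagged spots, averaging of a probe's spots, and turning of arrays with AngII in Cy3. The dye-swapped arrays of each replicate number were averaged and the 2 ratios tested against 0 (lmFit, eBayes, Benjamini-Hochberg over 19390 probes, threshold 0.05). A probe was kept if most of its spots were well above background in all 4 AngII or all 4 media channels. Levels are log2 intensities after quantile normalisation of mean intensities between arrays. The numbers pair the RNAs, since each array holds both RNAs of a number. The labels' term is biological replicate, with no separate animals or cultures named. Probes were named through accessions without versions matched to RefSeq (GRCm38.p6), and 25097 of 41174 were named. The array annotation is of another build, so probes have no coordinates here. The procedure was tested on simulated data.

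All members are named, as are up to 3 called genes at each end of 3 pathway lists, and marker genes by count. Atf6, Ern1, Eif2ak3, Krt8, Krt18, Epcam, Gata3 and Ret were named after their values were seen. The members, lists and motifs were chosen with earlier results of these data known. A planned look at protein ends was not made, as protein sequences were not used here. Alternatives are given in the closing section.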

Additional observations from a re-analysis of the deposited data

How the results depend on the processing

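Counts moved by over 1.5 times only in the fits that take the dye difference as error, in the 1.5-fold rule and, for lower calls, with median centring. With the replicate block, 5755 probes were called, with 12 members higher and 3 lower, 5 chaperones higher and 3 genes of the ATF4 arm lower. Leaving out replicate 1 or replicate 2 leaves a single dye-swapped pair. The ranges were then 2537 to 3584 probes called, 7 to 11 members higher, 2 members lower in each, 2 to 6 chaperones higher, 2 genes of the ATF4 arm lower in each, and a chaperone median of 0.42 to 0.50. With the 1.5-fold rule, chosen after seeing the data, 8 members were higher and 2 lower. With median centring 5 members were lower, all in the ATF4 arm. The median of the ATF4 arm was -0.11 with processed signals, 0.0016 with median centring and 0.027 on the arrays that held AngII in Cy3. That of the chaperones was 0.53 with median centring, 0.44 on the AngII in Cy5 arrays, 0.54 on the AngII in Cy3 arrays and 0.38 when each gene's probes were averaged. Signs turned for Sesn2 (0.25) and Psph (-0.057) on the AngII in Cy3 arrays, for Pdia6 (-0.0064) and Syvn1 (-0.18) on the AngII in Cy5 arrays, and for Edem1 (-0.094) when its probes were averaged. Over all single genes and alternatives, 367 values kept their call, 62 lost it, 7 gained it and these 5 turned with a call in at least 1 of the settings compared. Values near 0 that passed in neither setting also changed sign, for Shmt2, Hyou1, Slc7a11, Asns and Edem1. Values of many single genes also moved by over 1.5 times. Examples are Trib3, with 0.65 when its probes were averaged, and Mthfd2, with -0.64 from processed signals. Hsp90b1 had 0.31 on the AngII in Cy5 arrays and 1.00 on the AngII in Cy3 arrays. With probes averaged, Dnajb9 had 0.21 and Phgdh -0.50. Atf4 had -0.29 on the AngII in Cy5 arrays and -0.05 on the AngII in Cy3 arrays. The cause was not tested. No background correction, no filter on dim probes, the stricter filter, the dye term and keeping flagged spots, the last chosen after seeing the data, left every count and median here within 1.5 times or the replicate spread. All arrays share 1 slide. Dim probes (Mthfd2, Slc7a11, Hyou1) limit what a small ratio shows.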
